A study of Mus musculus with 18 samples.

Results

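Glycolysis converts glucose to pyruvate and lactate in the cytosol, and hypoxia-inducible factors (HIFs) switch on many of its enzymes together with angiogenic and oxygen-sensing genes. The 33 genes described here are 16 glycolytic enzymes, 5 genes of glucose and lactate transport and flux control, and 12 other hypoxia-response genes. They were chosen by symbol from a list of textbook members, with earlier results of these data known. Of the 33, 29 were found among the 10133 symbols listed in at least 1 of the 3 deposited tables. RNA with a poly(A) tail was sequenced from mouse embryonic fibroblasts immortalized as 2 lines. The line eIF2aS51A (S51A below), carries eIF2α with an alanine instead of the serine at which stress kinases normally brake protein synthesis. The other line is Wild-Type (WT). Both were left untreated (0 min) or exposed to hydrogen peroxide, H2O2, at 500 µM for 15 or 120 min, with 3 samples labelled for each of the 6 groups, although the series design speaks of duplicates. With a single line per genotype, effects of genotype and of line cannot be told apart. Nothing in the labels says that samples came from separate cultures, so the q-values may measure technical spread.

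Each table gives every group a single FPKM, a fragment density corrected for transcript length and library size. Sample spread and depth cannot be read from these tables, and values carry no standard deviation or interval. Only genes with an authors' q-value of at most 0.05 between the lines are listed. A gene that is not listed was not called or not tested, which says nothing about equality. Folds below are ratios of the authors' group FPKM values, and the words higher and lower rest on the authors' call. Of 9 fibroblast markers 7 were listed at 0 min, where 74.6% of all symbols were, and these markers divided between the lines. Col1a1, Col1a2, Col3a1, Pdgfra and Pdgfrb were higher in S51A, with Col1a2 at 1098 FPKM in S51A cells and 155 FPKM in WT cells, and Col1a1 at 1160 FPKM in S51A cells and 241 FPKM in WT cells. Thy1 was lower, at 10.6 FPKM in S51A cells and 23.6 FPKM in WT cells, as was Vim, at 1075 FPKM in S51A cells and 1872 FPKM in WT cells. Of the epithelial and endothelial markers, 0 were listed at any time, but a marker at like levels in both lines would not be listed either, so these tables cannot show whether such cells were present. Of the muscle markers Des was listed at 15 min, at 0.688 FPKM in S51A cells and 0.149 FPKM in WT cells. Of the leukocyte markers Cd68 stood at 1.11 FPKM in S51A cells and 1.97 FPKM in WT cells at 0 min, and Csf1r at 0.165 FPKM in S51A cells and 0.758 FPKM in WT cells at 120 min.

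Glucose enters through GLUT1 (Slc2a1) and is phosphorylated by hexokinase. The upper steps consume ATP, and the lower steps, from glyceraldehyde phosphate dehydrogenase to pyruvate kinase, give it back before lactate dehydrogenase regenerates NAD+. HIF subunits are held low in oxygen by prolyl hydroxylases (Egln1 and Egln3), which mark them for the Vhl ubiquitin ligase. When they escape, they bind DNA with Arnt at short motifs built on ACGTG or GCGTG. Peroxide is known to oxidise the catalytic cysteine of Gapdh, an effect on the protein that RNA levels do not show.

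The promoters of 4 members are shown because 2 of these genes (Ldha and Adm) were lower in untreated S51A cells and the other two (P4ha1 and Bnip3) were higher in S51A cells at 15 and 120 min. Each runs from 250 bases before to 50 bases after a RefSeq transcript start on GRCm38.p6, 5′ to 3′ on the gene's strand. Capitals mark the letters ACGTG or GCGTG on either strand. Neighbouring marks can overlap: CACGTG reads as ACGTG on both strands and counts as 2 matches. The windows are chr7:46845554-46845853 on the plus strand for Ldha, chr7:110627407-110627706 on the plus strand for Adm, chr10:59323046-59323345 on the plus strand for P4ha1, and chr7:138909457-138909756 on the minus strand for Bnip3.
Ldha: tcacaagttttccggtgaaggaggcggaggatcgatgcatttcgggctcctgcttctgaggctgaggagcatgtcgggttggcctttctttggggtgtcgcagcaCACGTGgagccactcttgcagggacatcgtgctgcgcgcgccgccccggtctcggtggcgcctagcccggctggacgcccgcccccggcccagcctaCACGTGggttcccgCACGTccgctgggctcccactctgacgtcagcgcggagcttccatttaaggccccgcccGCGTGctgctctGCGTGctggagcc
Adm: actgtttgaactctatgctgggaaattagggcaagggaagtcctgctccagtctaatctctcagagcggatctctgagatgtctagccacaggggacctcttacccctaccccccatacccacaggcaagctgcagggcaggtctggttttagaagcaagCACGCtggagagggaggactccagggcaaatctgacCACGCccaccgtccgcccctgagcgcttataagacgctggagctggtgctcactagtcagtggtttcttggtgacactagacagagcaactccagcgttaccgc
P4ha1: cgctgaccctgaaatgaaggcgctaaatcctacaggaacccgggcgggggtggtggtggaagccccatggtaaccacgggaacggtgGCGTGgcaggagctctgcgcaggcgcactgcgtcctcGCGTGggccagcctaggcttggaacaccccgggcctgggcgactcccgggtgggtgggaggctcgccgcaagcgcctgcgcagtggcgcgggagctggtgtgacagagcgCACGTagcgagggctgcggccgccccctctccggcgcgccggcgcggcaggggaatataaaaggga
Bnip3: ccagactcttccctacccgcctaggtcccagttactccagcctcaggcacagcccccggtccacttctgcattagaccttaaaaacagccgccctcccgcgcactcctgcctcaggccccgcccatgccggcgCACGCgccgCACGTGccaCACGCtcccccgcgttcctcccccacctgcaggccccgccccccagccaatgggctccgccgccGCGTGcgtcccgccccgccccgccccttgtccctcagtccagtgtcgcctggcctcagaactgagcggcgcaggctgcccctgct

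Ldha carried 7 matches in this window, Bnip3 5, P4ha1 3 and Adm 2. A match is a description of letters, not of a bound site. Of the 31 members with a RefSeq promoter, 28 (90.3%) had at least 1 match in any of their windows, against 68.8% of the 7771 listed genes with a promoter and 46.7% of all 27025 genes with one. The members were chosen as textbook glycolysis and hypoxia-response genes, so their share is not independent of that choice. A gene with more windows has more places for a match. Counted per window, 80% of 45 windows of members had one. The share was 62.4% of 9966 windows of listed genes and 43.8% of all 32851 windows. Matches stood on both sides of the comparison between the lines. They were in 6 of 6 members with a promoter that were lower in S51A at all 3 times, and in 5 of 6 that were higher at all 3 times. The 3 members with no match were Eno2, Gpi1 and Tpi1.

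In untreated cells, 24 members were listed, 8 higher and 16 lower in S51A. Over all symbols listed at any time, 74.6% were listed at 0 min. Of all entries at 0 min, 49.6% were higher and 50.4% lower, so a larger share of the members than of all entries was lower. In bulk RNA, fewer expressing cells and less RNA per cell cannot be told apart. After 15 min, 25 members were listed, 10 higher and 15 lower, where 82.0% of symbols were listed and 49.9% of entries were higher and 50.1% lower. After 120 min, 19 members were listed, 11 higher and 8 lower, where 60.4% of symbols were listed and 50.9% of entries were higher and 49.1% lower. Of the 15 members listed at all 3 times, 6 were higher throughout and 7 lower throughout. Over all symbols listed at all 3 times, 44.9% were higher throughout and 46.2% lower throughout. Aldoc, Pgam1, Eno1 and Pdk1 were listed in no table.

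**Figure D1:**
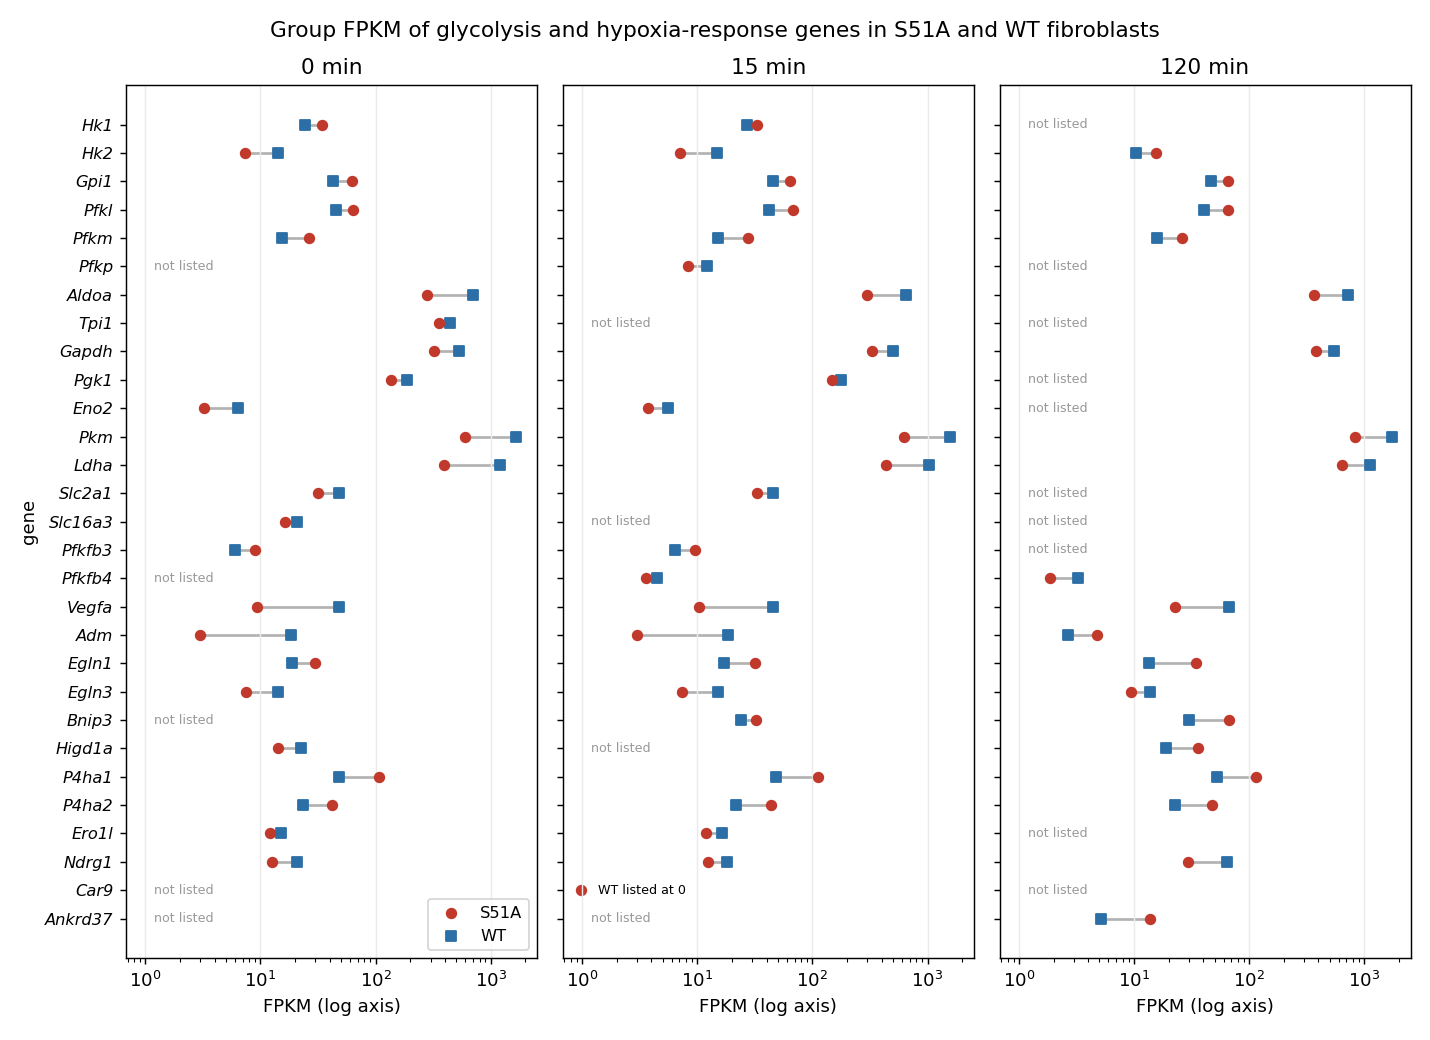
Group FPKM (log axis) of the 29 members listed at least once, in S51A (red circles) and WT (blue squares), 1 panel per time of peroxide; each point is 1 authors' group value with no error. From Aldoa to Ldha the circles lie left of the squares wherever a gene is listed, while Gpi1, Pfkl, Pfkm, P4ha1 and P4ha2 lie the other way at all 3 times.

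Enzyme genes from Aldoa to Ldha in the order of the pathway were lower in S51A wherever they were listed. Pkm, which encodes pyruvate kinase (chromosome 9, 59656368 to 59679375, mm10), was at 596, 626 and 826 FPKM in S51A cells at 0, 15 and 120 min and at 1652, 1563 and 1734 FPKM in WT cells. It was 2.77-fold, 2.50-fold and 2.10-fold lower in S51A, and its FPKM ranked 28 of the 7555 listed genes in untreated WT cells and 64 in untreated S51A cells. Ldha, the lactate dehydrogenase subunit that favours lactate formation (chromosome 7, 46845804 to 46855627), was at 396, 437 and 635 FPKM in S51A cells and at 1209, 1038 and 1121 FPKM in WT cells. Its level was 3.05-fold, 2.38-fold and 1.77-fold lower in S51A at the 3 times. Aldoa, the main muscle-type aldolase (chromosome 7, 126795234 to 126800447), was at 280, 296 and 367 FPKM in S51A cells and at 699, 653 and 719 FPKM in WT cells. For these enzymes the S51A value was below the WT value at every time.

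Gapdh, a frequent loading control in RNA measurements (chromosome 6, 125161852 to 125166467), was at 322, 329 and 380 FPKM in S51A cells and at 530, 498 and 549 FPKM in WT cells. That made it 1.65-fold, 1.52-fold and 1.44-fold lower in S51A. Pgk1, phosphoglycerate kinase (chromosome X, 106187100 to 106203699), was listed at 0 min with 135 FPKM in S51A and 186 FPKM in WT, and at 15 min with 148 FPKM in S51A and 177 FPKM in WT. Tpi1, triosephosphate isomerase, was listed at 0 min alone, at 357 FPKM in S51A cells and 446 FPKM in WT cells, and its deposited locus also spans Spsb2, a gene on the other strand that overlaps it. The neuronal-type enolase gene Eno2 was at 3.20 FPKM in S51A and 6.36 FPKM in WT at 0 min, and at 3.73 FPKM in S51A and 5.62 FPKM in WT at 15 min. Gapdh, Ldha, Aldoa and Pgk1 have processed pseudogenes, and reads shared with them may be split, since the sources used here do not give the counting rule.

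The direction of these enzymes has to be read beside that of other abundant genes. Among listed genes with a mean level of at least 100 FPKM over the lines on the log2 scale, 86.2% were lower in S51A at 0 min and 74.6% at 15 min. The 6 glycolytic enzymes in that range at 0 min (Aldoa, Tpi1, Gapdh, Pgk1, Pkm and Ldha) were all lower, as were the 5 in range at 15 min, which is near that background. At 120 min the background turned round, with 27.2% of such abundant genes lower in S51A. Aldoa, Gapdh, Pkm and Ldha, the 4 glycolytic enzymes in range then, were all still lower in S51A. This abundance range was chosen after the values had been seen.

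Genes of the upper steps Gpi1, Pfkl and Pfkm went the other way. Gpi1, phosphoglucose isomerase (chromosome 7, 34201327 to 34230336), was at 62.2, 64.4 and 65.3 FPKM in S51A cells at 0, 15 and 120 min and at 42.8, 45.3 and 46.9 FPKM in WT cells. Pfkl, the liver-type phosphofructokinase that commits sugar to glycolysis (chromosome 10, 77986949 to 78009796), was at 63.6, 68.1 and 65.3 FPKM in S51A cells and at 45.6, 42.2 and 40.2 FPKM in WT cells. Its muscle-type partner Pfkm was at 26.5, 27.9 and 26.4 FPKM in S51A cells and at 15.3, 15.1 and 15.8 FPKM in WT cells. These 3 genes were 1.39-fold to 1.84-fold higher in S51A at every time. Within each line their levels at 15 and 120 min stayed within 1.13-fold of the untreated level. The platelet-type gene Pfkp was listed at 15 min alone, lower in S51A, at 8.34 FPKM in S51A and 12.2 FPKM in WT, with a q-value of 0.0352 in the authors' deposited table. The deposited locus of Pfkm also spans Senp1 and that of Pfkp also spans Pitrm1, genes on the other strand that overlap them.

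The hexokinases divided by gene. Hk1, the widely expressed form that binds mitochondria (chromosome 10, 62268855 to 62379908), was higher in S51A, at 34.3 FPKM in S51A and 24.6 FPKM in WT at 0 min, and at 33.1 FPKM in S51A and 27.3 FPKM in WT at 15 min. Hk2, the inducible form (chromosome 6, 82725027 to 82774454), was at 7.36, 7.11 and 15.5 FPKM in S51A cells at 0, 15 and 120 min and at 14.2, 14.9 and 10.3 FPKM in WT cells. It was 1.93-fold and 2.10-fold lower in S51A at 0 and 15 min, and 1.49-fold higher at 120 min. Hk1 was therefore 4.66 times as abundant as Hk2 in untreated S51A cells, and 1.73 times in untreated WT cells.

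Of all entries, 50.4%, 50.1% and 49.1% were lower in S51A at 0, 15 and 120 min. Of 16 glycolytic enzymes, 12 were listed at 0 min and 12 at 15 min, each time 4 higher and 8 lower in S51A. At 120 min 8 of these enzymes were listed, 4 higher and 4 lower. Their median log2 ratio of S51A over WT was -0.59, -0.57 and -0.025 at the 3 times, beside -0.28, -0.21 and 0.40 over all listed genes with both lines above 0. Listed genes with a mean of at least 100 FPKM, a range that held 6 of the 12 enzymes at 0 min, had medians of -0.68, -0.40 and 0.67. At 120 min the enzyme median rests on 1 gene, since a q-value of at most 0.01 leaves out Pfkm and gives -0.53. With at least a 2-fold difference, 0 were higher at any time, where 21.2%, 19.1% and 25.6% of listed genes were. In the other direction 3, 4 and 1 were at least 2-fold lower, where 15.0%, 12.4% and 20.7% of listed genes were.

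**Figure D2:**
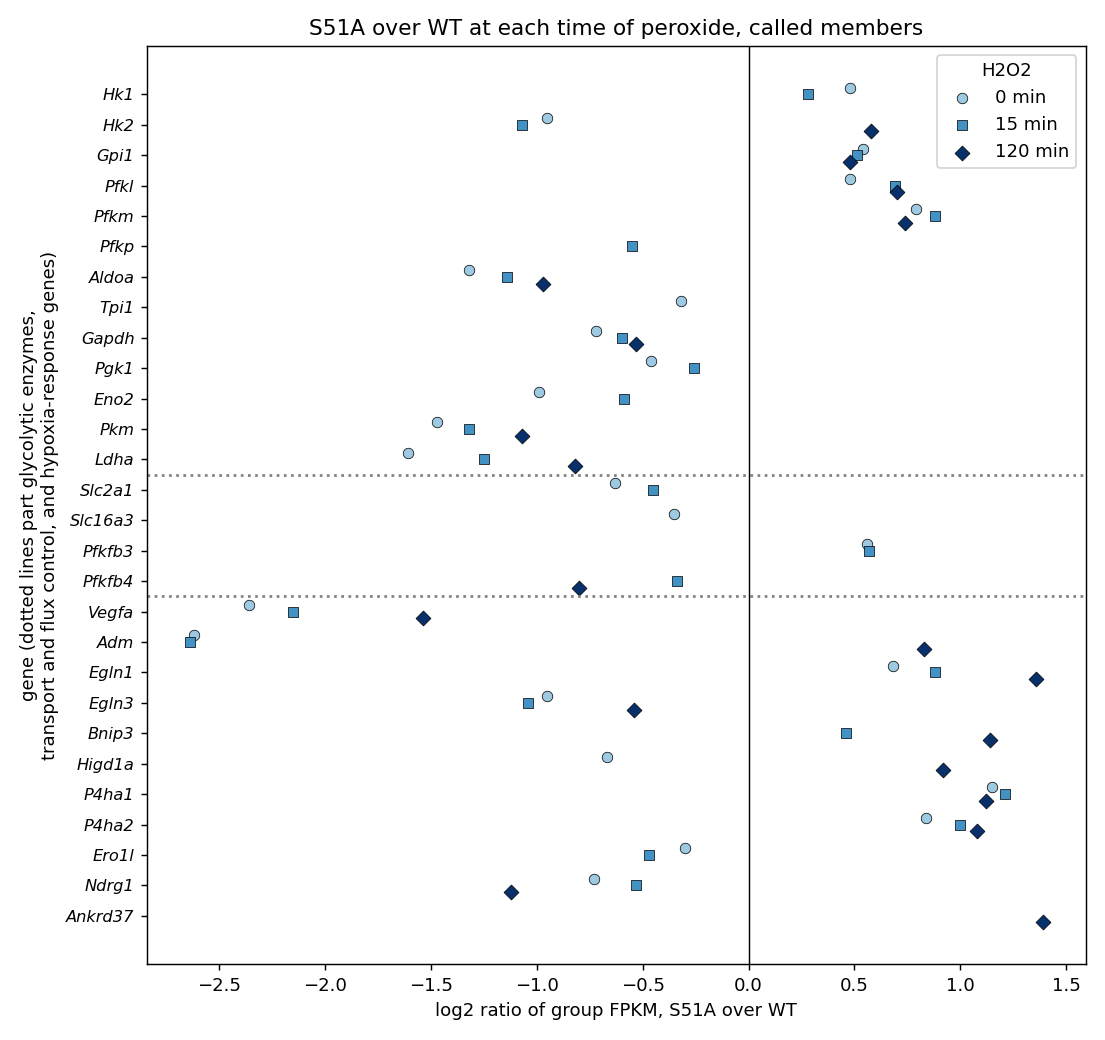
Log2 ratio of group FPKM, S51A over WT, for the members with a ratio, at 0 min (circles), 15 min (squares) and 120 min (diamonds); Car9 has no ratio because WT is listed at 0. Gpi1, Pfkl and Pfkm lie right of 0 and Aldoa to Ldha left of it wherever listed, Vegfa lies left at all times, and Adm lies at -2.62 at 0 min and 0.83 at 120 min in the authors' deposited table.

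Lactate dehydrogenase is a tetramer of A and B subunits, and the subunit genes differed between the lines in opposite directions. Ldhb, a gene outside the 33, was at 97.0, 109 and 135 FPKM in S51A cells at 0, 15 and 120 min and at 18.0, 15.9 and 18.8 FPKM in WT cells, 5.39-fold, 6.87-fold and 7.21-fold higher in S51A. The ratio of Ldha to Ldhb FPKM was 4.08, 4.0 and 4.69 in S51A cells and 67.2, 65.3 and 59.7 in WT cells. Their summed level was 493 FPKM in S51A cells and 1227 FPKM in WT cells at 0 min. The muscle-type enolase gene Eno3 was lower, at 8.63, 8.51 and 15.9 FPKM in S51A cells and 39.1, 37.3 and 40.8 FPKM in WT cells. Tigar was at 4.89, 5.50 and 4.69 FPKM in S51A cells and 10.6, 11.6 and 9.38 FPKM in WT cells. Its product lowers the phosphofructokinase activator that the enzymes of Pfkfb3 and Pfkfb4 make. Of the 22 other glycolysis genes in that list, 7 were listed at 0 min (2 higher and 5 lower in S51A). At 15 min 9 were listed (4 higher and 5 lower), and at 120 min 5 (2 higher and 3 lower). Over all symbols, 74.6%, 82.0% and 60.4% were listed at these times, and 50.4%, 50.1% and 49.1% of entries were lower.

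**Figure D3:**
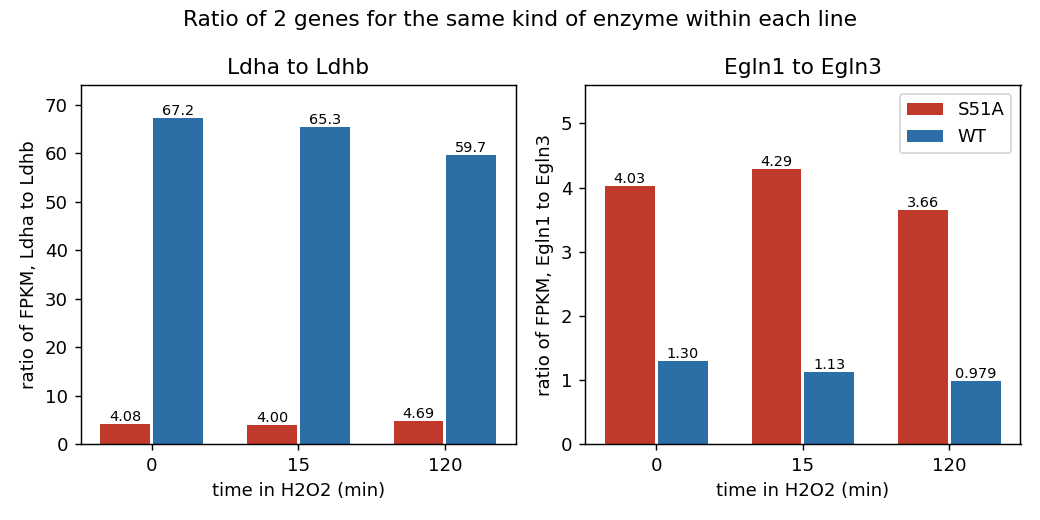
Ratio of FPKM of Ldha to Ldhb (left) and of Egln1 to Egln3 (right) within S51A (red bars) and WT (blue bars) at 0, 15 and 120 min; bars start at 0 and carry no error because each rests on 1 group value per gene. The first ratio is 4.0 to 4.69 in S51A and 59.7 to 67.2 in WT, and the second 3.66 to 4.29 in S51A and 0.979 to 1.30 in WT.

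Of the transport and flux control genes, the importer Slc2a1 (chromosome 4, 119108745 to 119137329) was lower in S51A at 0 min, at 31.3 FPKM in S51A and 48.5 FPKM in WT, and at 15 min, at 33.4 FPKM in S51A and 45.6 FPKM in WT. The lactate exporter gene Slc16a3 was listed at 0 min alone, at 16.4 FPKM in S51A, 1.27-fold lower than in WT. Pfkfb3 and Pfkfb4 encode enzymes that make fructose 2,6-bisphosphate, and they differed in direction. Pfkfb3 was higher in S51A, at 8.88 FPKM in S51A and 6.02 FPKM in WT at 0 min and at 9.58 FPKM in S51A and 6.45 FPKM in WT at 15 min. Pfkfb4 was lower in S51A, at 3.56 FPKM in S51A and 4.50 FPKM in WT at 15 min and at 1.87 FPKM in S51A and 3.25 FPKM in WT at 120 min. In this group 3, 3 and 1 of 5 genes were listed at 0, 15 and 120 min, where 74.6%, 82.0% and 60.4% of all symbols were.

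The secreted signals of the hypoxia response gave the largest differences among the members in untreated cells. Vegfa, the main angiogenic growth factor of hypoxic tissue (chromosome 17, 46016993 to 46032377), was at 9.32, 10.3 and 22.8 FPKM in S51A cells at 0, 15 and 120 min and at 47.8, 45.9 and 66.3 FPKM in WT cells. It was 5.13-fold, 4.44-fold and 2.91-fold lower in S51A. Adm, the precursor of the vasodilator peptide adrenomedullin (chromosome 7, 110627669 to 110629819), was at 2.97, 2.99 and 4.79 FPKM in S51A cells and at 18.3, 18.6 and 2.69 FPKM in WT cells. It was 6.15-fold and 6.23-fold lower in S51A at 0 and 15 min and 1.78-fold higher at 120 min, where its q-value in the authors' deposited table was 0.0383. The high Adm values were those of WT cells at 0 and 15 min. The WT value at 120 min (2.69 FPKM) was little below the lowest S51A value (2.97 FPKM, at 0 min). Times may have been normalized separately, so that order is descriptive and was not tested. An annotated antisense gene, Gm28863, overlaps Adm, as opposite-strand genes overlap 16 of the 33 members. The libraries kept strand, but no source used here says whether counting did, so reads of overlapping pairs may be mixed.

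Receptor genes for these signals were lower in S51A wherever they were listed, also at 120 min, when Adm itself was higher. Of 8 receptor genes for Vegfa and adrenomedullin, 5 were listed at each time, and all 5 were lower in S51A. Over all symbols, 74.6%, 82.0% and 60.4% were listed at 0, 15 and 120 min, and 50.4%, 50.1% and 49.1% of entries were lower. Ramp3, an accessory protein that turns the Calcrl receptor into an adrenomedullin receptor, was at 1.31, 1.10 and 3.01 FPKM in S51A cells at 0, 15 and 120 min and at 25.3, 21.9 and 23.1 FPKM in WT cells. Calcrl was low in both lines, at 0.186, 0.162 and 0.156 FPKM in S51A cells and 0.889, 1.04 and 0.959 FPKM in WT cells. Nrp1, a coreceptor for Vegfa, was at 15.2 FPKM in S51A and 44.6 FPKM in WT at 0 min. Flt1, a Vegfa receptor tyrosine kinase, was at 1.39 FPKM in S51A and 4.72 FPKM in WT at 15 min, and at 1.01 FPKM in S51A and 3.92 FPKM in WT at 120 min.

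The oxygen-sensing prolyl hydroxylases, which are HIF targets themselves, divided by gene. Egln1, the main one in most cells (chromosome 8, 124908587 to 124949254), was at 29.9, 31.6 and 34.5 FPKM in S51A cells at 0, 15 and 120 min and at 18.6, 17.1 and 13.5 FPKM in WT cells. Its fold was 1.60, 1.84 and 2.57 in favour of S51A. Egln3 (chromosome 12, 54178981 to 54203874) was at 7.41, 7.36 and 9.45 FPKM in S51A cells and at 14.3, 15.1 and 13.7 FPKM in WT cells, lower in S51A at each time. The ratio of Egln1 to Egln3 FPKM was 4.03, 4.29 and 3.66 in S51A cells and 1.30, 1.13 and 0.979 in WT cells.

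The collagen prolyl hydroxylases were higher in S51A throughout. P4ha1, a catalytic subunit of the enzyme that stabilizes the collagen helix (chromosome 10, 59323296 to 59373304), was at 107, 111 and 115 FPKM in S51A cells and at 48.2, 48.2 and 52.7 FPKM in WT cells. P4ha2, its paralog (chromosome 11, 54100924 to 54131667), was at 41.9, 43.4 and 47.8 FPKM in S51A cells and at 23.4, 21.7 and 22.6 FPKM in WT cells. Folds ran from 2.17 to 2.31 for P4ha1 and from 1.79 to 2.11 for P4ha2. Ero1l, an oxidase that forms disulfide bonds in the endoplasmic reticulum, was lower in S51A, at 12.1 FPKM in S51A and 14.9 FPKM in WT at 0 min and at 11.8 FPKM in S51A and 16.3 FPKM in WT at 15 min.

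Mitochondrial genes of the hypoxia response were higher in S51A at 120 min. Bnip3, a mitophagy receptor (chromosome 7, 138890836 to 138909506), was at 32.7 FPKM in S51A and 23.8 FPKM in WT at 15 min, and at 66.7 FPKM in S51A and 30.3 FPKM in WT at 120 min. Higd1a, a small inner membrane protein (chromosome 9, 121848560 to 121858000), was lower in S51A at 0 min, at 14.2 FPKM in S51A and 22.6 FPKM in WT. At 120 min it was higher, at 35.8 FPKM in S51A and 18.9 FPKM in WT. Ndrg1, a stress-responsive differentiation gene (chromosome 15, 66929318 to 66969641), was lower in S51A throughout, at 12.6, 12.5 and 29.2 FPKM in S51A cells and at 20.8, 18.0 and 63.6 FPKM in WT cells. Car9, a carbonic anhydrase often used as a hypoxia marker, was listed at 15 min alone, at 0.986 FPKM in S51A and listed at 0 in WT. Ankrd37 was listed at 120 min alone, at 13.6 FPKM in S51A and 5.21 FPKM in WT, with a q-value of 0.0498 in the authors' deposited table and a deposited locus that also spans Ufsp2.

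Of all entries, 49.6%, 49.9% and 50.9% were higher in S51A at 0, 15 and 120 min. Together 9 of 12 hypoxia-response genes were listed at 0 min (3 higher and 6 lower in S51A). At 15 min 10 of them were listed (5 and 5), and at 120 min 10 (7 higher and 3 lower). Over those with both lines above 0, which leaves out Car9 at 15 min, their median log2 ratio of S51A over WT was -0.67, -0.47 and 1.00, beside the -0.28, -0.21 and 0.40 of all listed genes. With Car9 included through a pseudocount of 1 FPKM, the median at 15 min was 0.0028. At least a 2-fold difference upward was held by 1, 2 and 5 of them, where 21.2%, 19.1% and 25.6% of listed genes held one. Downward it was held by 2, 3 and 2 of them, where 15.0%, 12.4% and 20.7% of listed genes held one.

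The HIF machinery itself held genes that were higher and genes that were lower in S51A. Of 9 such genes, 7 were listed at 0 min and 7 at 15 min, in each case 5 higher and 2 lower. At 120 min 5 were listed, 3 higher and 2 lower. Over all symbols, 74.6%, 82.0% and 60.4% were listed at these times, and 49.6%, 49.9% and 50.9% of entries were higher. Arnt, the DNA-binding partner of HIF alpha subunits, was at 30.9 FPKM in S51A and 12.0 FPKM in WT at 0 min, and at 28.6 FPKM in S51A and 12.8 FPKM in WT at 15 min. Its relative Arnt2 was at 13.6, 12.6 and 7.62 FPKM in S51A cells and 4.14, 5.28 and 3.76 FPKM in WT cells. Vhl, the ligase subunit that recognises hydroxylated HIF, was at 27.9 FPKM in S51A and 13.1 FPKM in WT at 120 min. Cited2, which competes with HIF for a coactivator, was lower, at 95.0, 91.8 and 36.8 FPKM in S51A cells and 202, 197 and 56.5 FPKM in WT cells. Epas1, the alpha subunit HIF-2, was at 0.330 FPKM in S51A and 0.732 FPKM in WT at 120 min. Hif1a, picked after its values were seen, was at 124 FPKM in S51A and 66.3 FPKM in WT at 0 min.

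A wider list of 29 hypoxia-response genes was divided too, with 22 listed at 0 min, 12 higher and 10 lower in S51A. At 15 min 22 were listed (13 higher and 9 lower), and at 120 min 15 (10 higher and 5 lower). Among all symbols, 74.6%, 82.0% and 60.4% were listed at these times, and 49.6%, 49.9% and 50.9% of entries were higher. Loxl2, a lysyl oxidase, was at 56.5 FPKM in S51A and 0.0261 FPKM in WT at 0 min. Stc1, a secreted glycoprotein gene, was lower, at 0.0390 FPKM in S51A and 0.747 FPKM in WT at 0 min. Hmox1, the heme oxygenase gene and also a target of NRF2, was at 45.3 FPKM in S51A and 234 FPKM in WT. Igfbp3, which binds insulin-like growth factors, was at 1.33 FPKM in S51A and 0.0684 FPKM in WT at 15 min. At 120 min the largest differences were those of the growth factor gene Pdgfb, at 4.86 FPKM in S51A and 0.829 FPKM in WT, and of the repressor gene Bhlhe40, at 65.8 FPKM in S51A and 16.7 FPKM in WT. They were followed by the collagen crosslinker Lox, at 193 FPKM in S51A and 55.7 FPKM in WT.

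The tables of different times may have been normalized separately, so levels across times are descriptive and untested. They were set on a log2(FPKM + 1) scale and shifted so that genes listed at both times had a median of 0, a scale that understates changes of low genes. From 0 to 15 min no member with values at both times moved by 2-fold in either line, and hardly any gene did: 0.0628% upward and 0.0314% downward in S51A, and 0.00% upward and 0.0628% downward in WT. The median change of glycolytic enzymes was 0.05 in S51A and -0.09 in WT, and that of hypoxia-response genes 0.01 in S51A and -0.04 in WT. From 0 to 120 min, all 8 glycolytic enzymes listed at both times stood above the centre in S51A, by 0.17 to 1.15 with a median of 0.49. By the centring, as many of all genes lie above the centre as below it. The count depends on the shift removed, which was -0.18 in S51A: Pfkm FPKM itself was 0.993 times its untreated level. In WT their changes ran from -0.33 to 0.23 with a median of 0.14. The 8 hypoxia-response genes had a median change of 0.61 in S51A, with a range of 0.28 to 1.45, and 0.05 in WT, with a range of -2.28 to 1.66.

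Past a 2-fold change at 120 min, S51A had 1 glycolytic enzyme upward (Hk2, change 1.15) and 3 hypoxia-response genes upward: Higd1a at 1.45, Vegfa at 1.38 and Ndrg1 at 1.34. Of all genes listed at both times, 11.5% were 2-fold upward and 6.21% downward in S51A. WT had Ndrg1 upward, at 1.66, and Adm downward, at -2.28, where 0.624% of genes were 2-fold upward and 1.64% downward. In WT cells Ndrg1 FPKM at 120 min was 3.05 times its level at 0 min, and in S51A cells 2.33 times. Adm at 120 min was 1.61 times its untreated level in S51A, while in WT its untreated level was 6.77 times that at 120 min.

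**Figure D4:**
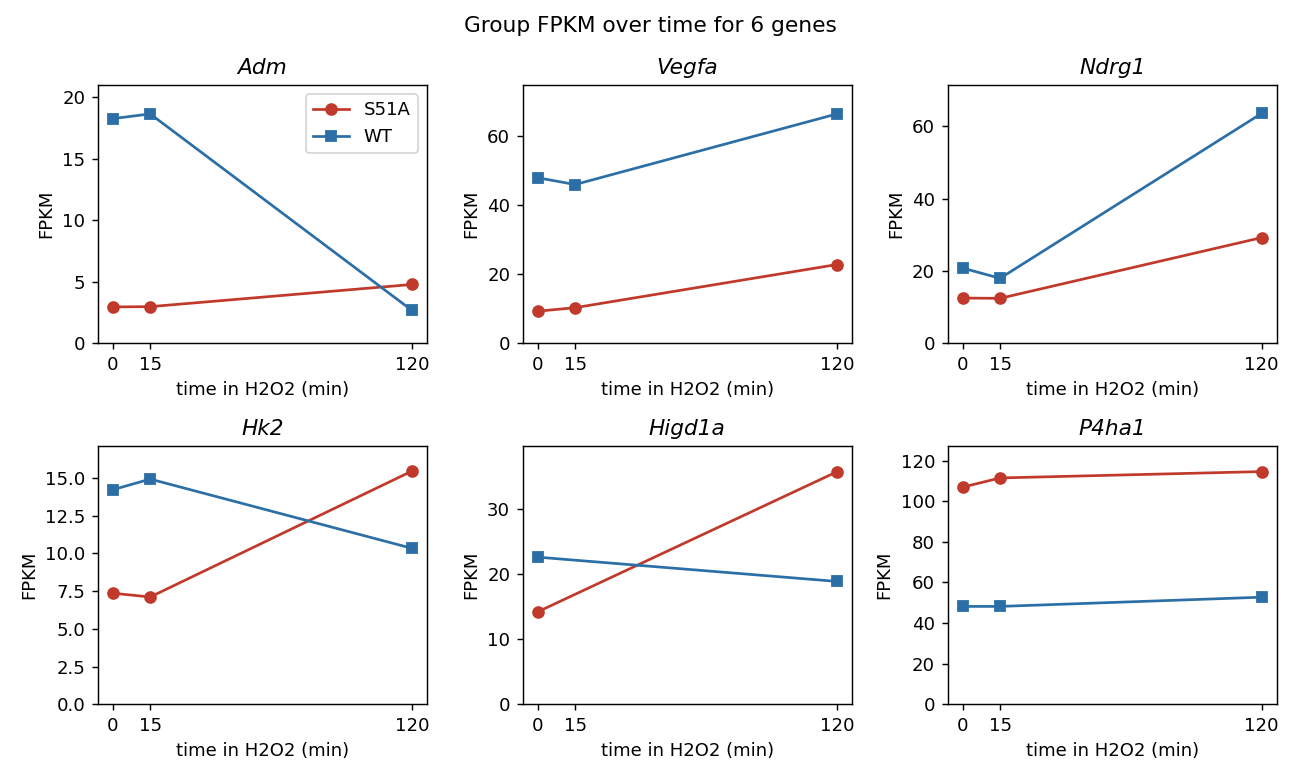
Group FPKM over time in H2O2 for 6 members, S51A in red and WT in blue; each point is 1 authors' group value, lines only join them, and Higd1a was not listed at 15 min. Adm, Hk2 and Higd1a cross between the lines, Vegfa and Ndrg1 are higher at 120 min than at 0 min in both, and P4ha1 runs flat at 107 to 115 FPKM in S51A and 48.2 to 52.7 FPKM in WT.

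Of 16 members listed at both 0 and 120 min, 3 (Hk2, Adm and Higd1a) had opposite calls at these times, where 18.1% of all genes listed at both did. The log2 ratio of S51A over WT at 120 min minus that at 0 min was above 0 for 12 of the 16 members and below 0 for 4, with a median of 0.375. Over 4102 genes with a coding length, 46.3% were above 0 and the median was -0.06. This change went with transcript length across genes, with Pearson r = -0.65 between it and the log2 of the longest coding transcript. Genes share the same group values, so they are not independent replicates. When the genes were ordered by length and cut into 4 groups of like size, the median change was 0.72 in the shortest group (371 to 2071 nt) and -0.73 in the longest.

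The members were spread over these groups as 4, 7, 4 and 1, from short to long. Against the median of their own length group, 11 of the 16 members were above and 5 below. Aldoa and Gapdh changed by 0.35 and 0.19, under the 0.72 of the shortest group, and Ldha by 0.79. Hk2, with a transcript of 5513 nt, changed by 1.53 in a group with a median of -0.73. Adm, at 1390 nt, changed by 3.45. Vegfa changed by 0.82 and Egln1 by 0.68 in a group with a median of -0.19. The part of transcript length in the members' differences at 120 min was not tested.

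**Figure D5:**
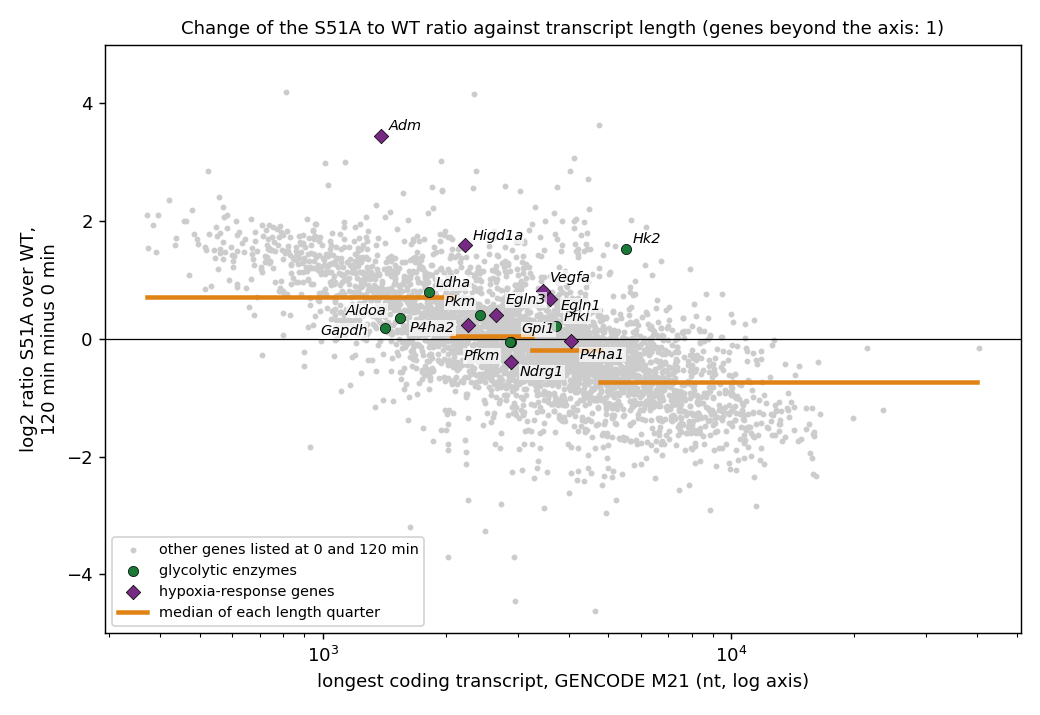
Log2 ratio of S51A over WT at 120 min minus that at 0 min (vertical axis) against the longest coding transcript in nt (log axis), for genes listed at both times; grey points are other genes, green circles glycolytic enzymes, violet diamonds hypoxia-response genes, and orange bars the median of each of 4 length groups. Medians run from 0.72 in the shortest group to -0.73 in the longest, and Adm at 3.45, Higd1a at 1.59 and Hk2 at 1.53 lie above the bar of their group.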

How the data were processed

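From 18 samples, directional poly(A) libraries were sequenced single-end (75 nt, NextSeq 500), per the labels' protocols. Per the submitters' processing notes, STAR, Cufflinks, Cuffdiff and mm10 were used; roles, versions and the annotation are not given in the sources used here. Per the file headers, the deposited values are group FPKM in log2, their log2 ratio and its q-value. Replicates had been combined before deposit, so no test across samples could be made. Groups listed at 0 carry -10 in place of a logarithm. The ratio equals the difference of the columns within 0.01. Starts have 1 added. One further numeric column per table was not used.

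Folds, medians and changes over time (pseudocount of 1 FPKM) were computed with Python 3.11.15 and pandas 2.3.3, and checked on simulated tables. Coding lengths are from GENCODE M21. Members, lists and the rule for naming genes (all members; the 3 largest ratios at each time in each of 5 further lists) were chosen with earlier results of these data known. The cell type markers printed were picked after their values were seen. Alternatives were a q-value of 0.01, a minimum fold of 2, a minimum of 5 FPKM, other pseudocounts and other centring.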

Additional observations from a re-analysis of the deposited data

Results flagged for a closer look

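Hk2, Adm and Higd1a drew attention because the authors called them in opposite directions at 0 and 120 min. They were 3 of 16 members listed at both times. Of all genes listed at both, 18.1% had opposite calls, a like share, so such calls were not particular to the members. The log2 ratio of S51A over WT in the authors' deposited table was -0.95 at 0 min and 0.58 at 120 min for Hk2. For Adm the authors' deposited table gave -2.62 at 0 min and 0.83 at 120 min, and for Higd1a -0.67 and 0.92. The difference between the times was not tested, since the tables hold 1 value per group.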

How the results depend on the processing

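Of 60 values recomputed for the counts and medians, 45 stayed close to the reported one (counts within 1.5-fold, medians within 0.1 on the log2 scale). With a minimum fold of 2, members higher in S51A numbered 1, 3 and 5 at 0, 15 and 120 min, and members lower numbered 5, 7 and 3; the 3 at 15 min include Car9, whose ratio is arbitrary because WT is listed at 0. With a q-value of at most 0.01, the median log2 ratio of called glycolytic enzymes was -0.72 at 0 min and -0.53 at 120 min. With a pseudocount of 1 FPKM, the median of hypoxia-response genes at 15 min was 0.0028, because Car9 then enters it. For changes from 0 to 120 min in S51A, leaving out the centring gave medians of 0.31 for glycolytic enzymes and 0.43 for hypoxia-response genes. Centring on genes with at least 5 FPKM gave 0.38 and 0.50, and a pseudocount of 0.1 FPKM gave 0.72 for hypoxia-response genes. In WT the median of hypoxia-response genes was -0.052 without centring, a reversed sign at a value near 0. A pseudocount of 1 FPKM added to both lines cannot reverse the ratio of a single member. The 67 such ratios are therefore no check of direction. No paired analysis was possible because the tables hold 1 value per group, and leaving out replicates was not run for the same reason. Depth is unknown.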

Other observations

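Pyruvate leaves glycolysis for mitochondria through the carrier of Mpc1 and Mpc2 and the pyruvate dehydrogenase complex, which Pdk kinases switch off and Pdp phosphatases switch on. Of 13 such genes, 7 were listed at 0 min (4 higher and 3 lower in S51A), 11 at 15 min (7 and 4) and 5 at 120 min (4 and 1). Over all symbols, 74.6%, 82.0% and 60.4% were listed at these times, and 49.6%, 49.9% and 50.9% of entries were higher. Pdk3 and Dlat, picked after their values were seen, were lower in S51A. Pdk3 was listed at 15 min alone, at 47.8 FPKM in S51A and 56.5 FPKM in WT. Dlat, a subunit gene of the complex, was at 26.2, 26.2 and 24.8 FPKM in S51A cells and 41.4, 42.2 and 37.8 FPKM in WT cells. In untreated cells the kinase genes Pdk4 and Pdk2 and the phosphatase gene Pdp1 were higher in S51A. Pdk4 was at 3.36 FPKM in S51A and 0.112 FPKM in WT, Pdk2 at 3.03 FPKM in S51A and 0.590 FPKM in WT, and the phosphatase gene Pdp1 at 13.4 FPKM in S51A and 3.23 FPKM in WT. At 120 min the carrier gene Mpc2 was at 133 FPKM in S51A and 48.2 FPKM in WT, Pdk2 at 1.71 FPKM in S51A and 0.655 FPKM in WT, and Pdhb, a subunit of the complex, at 99.0 FPKM in S51A and 51.6 FPKM in WT.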
